A study of Mus musculus with 48 samples.

Results

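Epidermal stem cells were compared between aged and young mice at a single time of day, ZT0. By convention ZT0 is the time at which the lights come on. The arrays used were the 4 aged and the 4 young arrays whose titles give T0, out of 48 arrays in the series, and the other 40 arrays served only to ask which differences were particular to this time. All mice were wild-type C57B6/J females, the aged ones 102 to 116 weeks old and the young ones 8 weeks old, and the design text gives 4 mice per age and time. Total RNA of the cells was amplified and hybridised to 1-colour Affymetrix arrays. How the cells were sorted from the epidermis, and which mice shared a cage or a day, is not given in the sources used here.

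Epidermal stem cells sit on the basement membrane of the skin and in the hair follicle, and their daughters form the cornified layers that seal the body. A circadian clock runs in these cells: ARNTL (BMAL1) and CLOCK activate the Per and Cry genes, whose proteins then repress them, and the cycle sets the timing of division, repair and metabolism. In aged skin, stem cells are known for slower repair and for a raised tone of inflammatory and stress genes.

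Values are log2 RMA signals, so a difference of 1 is a doubling of signal. Each gene was read from 1 probe set, and 12823 genes were bright enough to be tested. Array medians lay between 4.87 and 5.04 in aged arrays and between 4.79 and 4.88 in young arrays. Correlations between the 8 arrays ran from 0.96 to 0.99. Young replicates 2 and 3 stood apart, with residual SDs of 0.293 and 0.278, where the other 6 arrays lay between 0.161 and 0.233. Counts are therefore also given without these 2 arrays, an alternative chosen after seeing the data. None of 6 technical measures per array passed an exact permutation test between the ages (2-sided, unadjusted p = 0.2 to 0.686, adjusted p = 0.686 for each). The smallest possible p was 0.0286 before adjustment. A single measure that separated the ages fully could therefore not have passed after adjustment, and the test excludes no technical difference. Basal keratinocyte markers were bright: Krt5 averaged 12.65 in aged and 12.74 in young arrays, and Krt14, its partner keratin, 12.33 in aged and 12.39 in young arrays. Markers of other cell types were dimmer in the mean, though not all near the dim limit of 3.96. The purity of the sorted cells was not tested. The mean over the suprabasal keratinocyte markers ran from 8.96 to 9.17 in aged and from 8.55 to 9.03 in young arrays. For the upper follicle and sebaceous gland markers it ran from 8.95 to 9.59 in aged and from 8.56 to 8.61 in young arrays. The mean over the 2 endothelial markers tested, of 8 listed, ran from 4.29 to 4.70 in aged and from 4.35 to 4.60 in young arrays. For the 8 fibroblast markers tested, of 12 listed, it ran from 5.76 to 5.92 in aged and from 5.60 to 5.93 in young arrays. For the 8 Langerhans and myeloid cell markers tested, of 13 listed, it ran from 6.05 to 6.34 in aged and from 5.89 to 6.38 in young arrays.

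At ZT0, 65 of the 12823 genes differed between aged and young cells (0.507%; limma, Benjamini-Hochberg adjusted p under 0.05). Of these, 50 were higher in aged cells (0.39%) and 15 were lower (0.117%). In all 65 the 4 aged values lay on one side of the 4 young values, which held for 5.68% of all tested genes (2.93% with aged cells above and 2.75% with them below). The rises ran from 0.60 to 2.54 on the log2 scale and the falls from -0.78 to -1.55, and 40 of the 65 genes differed by at least 2 times. An unadjusted p under 0.05 was reached by 723 genes that were higher and 859 that were lower. Without young replicates 2 and 3, 23 genes were higher and 7 were lower, and 24 of the 65 were among them. The result also turned on aged replicate 4: without it, 225 genes were higher and 131 were lower, and all 65 were among them. Other single arrays also moved the counts by more than 1.5 times: 21 and 5 genes passed without aged replicate 1, 23 and 3 without aged replicate 3, 29 and 6 without young replicate 1, and 22 and 4 without young replicate 4. Without young replicate 2, 31 were lower.

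The strongest rise belonged to Zmynd15, a MYND zinc finger protein known as a transcriptional repressor in male germ cells. The 4 aged arrays read 7.67, 7.77, 7.92 and 7.86 for it, against 5.31, 4.96, 5.72 and 5.08 in the young arrays. Every aged array was more than 1 log2 unit above every young one. The difference of 2.54 ± 0.16 (SE) corresponds to 5.80 times the young signal (adjusted p = 6.93e-05). Cadps2 encodes a protein that primes dense-core vesicles for release. It read 6.17, 6.98, 6.94 and 6.25 in aged cells, against 4.29, 3.98, 4.26 and 4.02 in young cells, a difference of 2.45 ± 0.20 (adjusted p = 0.000308). The young values lay close to the dim limit, so this gene was far above it in aged cells alone.

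Receptor signalling was represented by a pair of genes. Rgs4, which speeds the shut-off of G proteins, gave 7.71, 7.30, 6.08 and 7.80 in aged arrays, against 4.67, 4.80, 5.03 and 5.11 in young arrays. Aged replicate 3 was the lowest aged value, 1 log2 unit or more below its group and still above every young array. The difference was 2.32 ± 0.32 (adjusted p = 0.00873). Avpr1a, the vasopressin V1a receptor, gave 7.97, 7.06, 8.34 and 8.34 in aged arrays, against 5.77, 5.79, 6.04 and 5.36 in young arrays. It differed by 2.19 ± 0.26 (adjusted p = 0.00627), and here aged replicate 2 was the lowest of its group.

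Inflammatory caspases rose together in aged cells. These proteases sit next to each other on chromosome 9. Casp1 and Casp4 are known for cutting gasdermin D, the pore that ends the cell in pyroptosis. Casp4, the mouse caspase once called caspase-11, which senses bacterial lipopolysaccharide, read 9.94, 9.70, 9.93 and 9.71 in aged arrays, against 8.09, 8.16, 8.13 and 7.95 in young arrays. Both groups were tight, and the difference was 1.74 ± 0.12 (adjusted p = 6.93e-05). Casp1, which activates interleukin 1 beta, read 7.54, 7.65, 7.46 and 7.57 in aged arrays, against 5.90, 5.51, 6.62 and 5.78 in young arrays. Young replicate 3 was the highest young value and stayed below every aged one, and the difference was 1.60 ± 0.20 (adjusted p = 0.0072). Casp12, their neighbour, named here outside the rule for named genes, read 5.55, 5.16, 4.95 and 5.21 in aged arrays, against 4.13, 4.34, 4.46 and 4.03 in young arrays, a difference of 0.98 ± 0.15 (adjusted p = 0.0188). Il18, a cytokine that Casp1 activates, had a difference of 1.11 (95% interval 0.56 to 1.65) that missed the threshold (adjusted p = 0.0915).

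The 250 bases before the starts of these 3 genes are shown because the genes are neighbours that moved the same way. They were read from RefSeq on GRCm38.p6, each on the plus strand, 5′ to 3′, and capitals mark the E-box CACGTG, the letters that ARNTL and CLOCK are known to bind.
Casp1, chr9:5298267-5298516: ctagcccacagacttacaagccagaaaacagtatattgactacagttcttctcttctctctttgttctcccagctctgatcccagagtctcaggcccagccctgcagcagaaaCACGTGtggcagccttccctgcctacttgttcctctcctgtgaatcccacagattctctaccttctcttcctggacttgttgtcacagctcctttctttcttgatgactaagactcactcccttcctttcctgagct
Casp4, chr9:5308599-5308848: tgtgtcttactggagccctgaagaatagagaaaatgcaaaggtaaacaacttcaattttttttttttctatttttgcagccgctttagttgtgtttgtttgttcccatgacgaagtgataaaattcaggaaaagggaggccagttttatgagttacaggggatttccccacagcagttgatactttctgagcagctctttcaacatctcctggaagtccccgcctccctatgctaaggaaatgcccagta
Casp12, chr9:5345226-5345475: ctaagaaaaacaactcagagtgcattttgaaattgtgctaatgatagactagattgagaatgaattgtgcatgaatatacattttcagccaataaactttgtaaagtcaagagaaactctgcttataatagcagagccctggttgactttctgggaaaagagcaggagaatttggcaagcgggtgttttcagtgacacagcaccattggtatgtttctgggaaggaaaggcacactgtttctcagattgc
The starts of Casp1 and Casp4 lie 10332 bases apart. The E-box was found 137 bases before the start of Casp1 and in neither of the other windows. It reads the same on both strands and occurs in 6.02% of 32851 RefSeq promoter windows of this length. A match is a description of the letters and not of a bound site.

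Keratin and lipid genes were also among the strongest rises. Krt6a, a keratin that wounded or stressed epidermis makes, read 8.25, 8.72, 8.42 and 8.52 in aged arrays, against 6.84, 6.75, 6.69 and 6.18 in young arrays (difference 1.86 ± 0.16, adjusted p = 0.00039). Far2, which reduces fatty acids to the alcohols of skin waxes, read 6.88, 6.41, 6.78 and 7.03 in aged arrays, against 5.22, 5.12, 4.86 and 4.85 in young arrays (difference 1.76 ± 0.15, adjusted p = 0.00039). Neither gene had an aged value within 1 log2 unit of a young one. Zc3h12c, an RNase of the Regnase family, rose by 1.75 ± 0.23 (adjusted p = 0.00768).

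The aldo-keto reductases Akr1c19 and Akr1c13, enzymes that reduce steroids and other carbonyls, rose unevenly. Akr1c19 read 7.28, 5.46, 5.95 and 7.41 in aged arrays, against 4.54, 4.19, 4.39 and 4.42 in young arrays. Akr1c13 read 6.74, 5.40, 6.15 and 6.73 in aged arrays, against 4.62, 4.61, 4.50 and 4.61 in young arrays. In both, aged replicates 1 and 4 were high and replicate 2 was low, while the young arrays were nearly flat. The differences were 2.14 ± 0.38 and 1.67 ± 0.25 (adjusted p = 0.0337 and 0.0155). Akr1c12, outside the rule, was also highest in aged replicates 1 and 4, with a difference of 1.07, though a second probe set gave 0.05. These genes are close copies on chromosome 13 whose probe sets may share signal, so they are not separate observations.

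**Figure D1:**
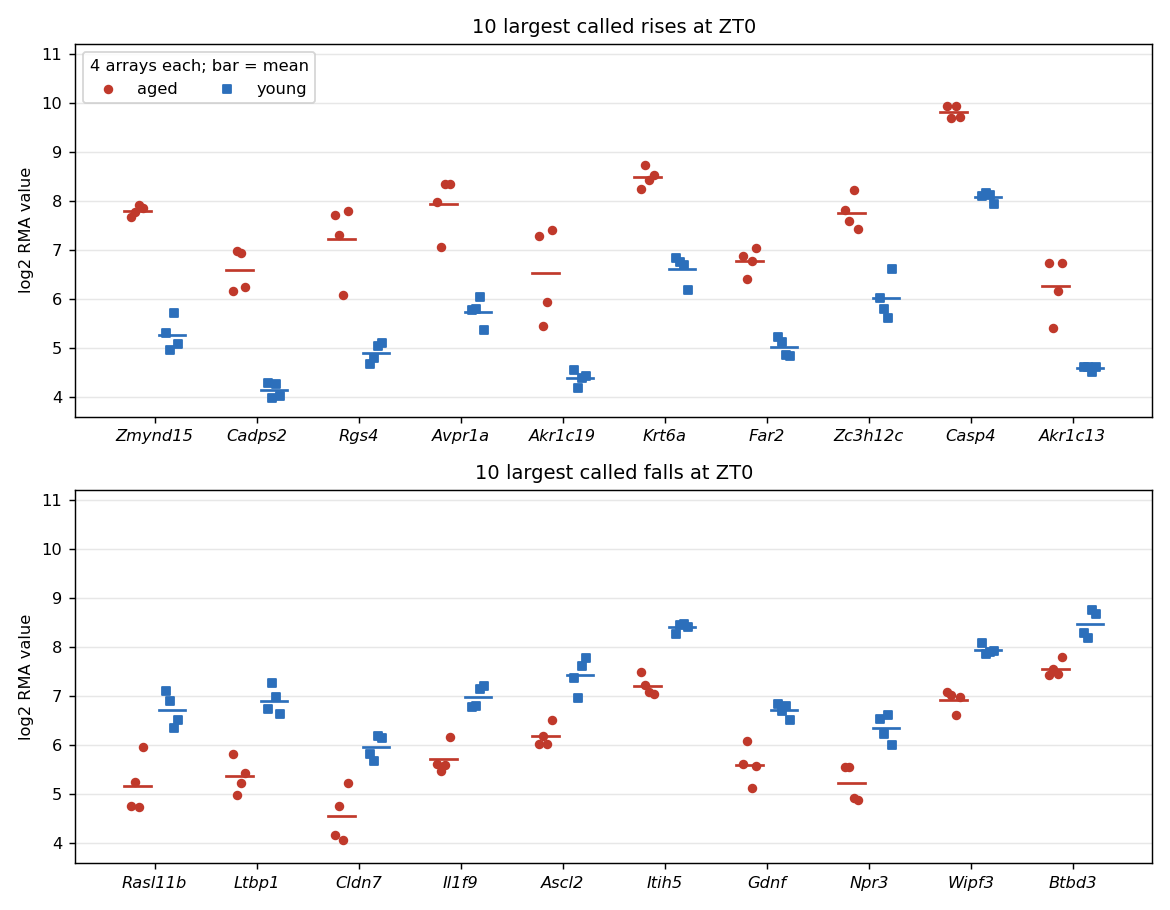
Log2 RMA values of the 10 largest called rises (top) and falls (bottom) at ZT0, with 4 aged arrays (red circles, left) and 4 young arrays (blue squares, right) per gene and a bar at each mean. No gene shown has an aged value inside the young range, and Akr1c19 and Rgs4 have the widest aged spread among the rises.

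Signalling and immune genes outside the rule also rose, and those named here were chosen after their values were seen. The cytokine Tnf rose by 0.97 ± 0.18 (adjusted p = 0.0399) and Il23a, a subunit of interleukin 23, by 0.90 ± 0.16 (adjusted p = 0.0417). Under the alternatives listed at the end, Tnf lost its call in 11 of 19 and Il23a in 12 of 19, while both kept their direction. Thbd, the anticoagulant receptor thrombomodulin, rose by 1.61 (adjusted p = 0.0124), and Tgm2, a protein-crosslinking transglutaminase, by 1.55 (adjusted p = 0.0223). The cytidine deaminases Apobec1 and Apobec3 rose by 1.24 and 1.13 (adjusted p = 0.0155 and 0.0187). The largest difference of all at ZT0, 2.99 for Bex1, did not pass (adjusted p = 0.21): its standard error was 0.94.

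The falls were led by Rasl11b, a small GTPase of the Ras family. It read 4.75, 5.25, 4.74 and 5.97 in aged arrays, against 7.11, 6.91, 6.36 and 6.52 in young arrays. The highest aged array, replicate 4, came close to the lowest young one, and the difference was -1.55 ± 0.27 (adjusted p = 0.0327). Ltbp1 binds latent TGF-beta in the matrix. It read 5.81, 4.99, 5.23 and 5.44 in aged arrays, against 6.73, 7.28, 6.99 and 6.63 in young arrays (difference -1.54 ± 0.19, adjusted p = 0.0072). Of its probe sets the brightest was used, and a dim one gave a difference of 0.04. Itih5, a hyaluronan-associated matrix protein, was among the tightest of the falls, at 7.50, 7.23, 7.09 and 7.04 in aged arrays, against 8.27, 8.45, 8.48 and 8.41 in young arrays (difference -1.19 ± 0.13, adjusted p = 0.00266).

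Further falls touched junctions, cytokines and transcription. Cldn7, a tight junction claudin, fell by 1.40 on the log2 scale (adjusted p = 0.0327), with aged values of 4.17, 4.77, 4.06 and 5.23, against 5.82, 5.68, 6.18 and 6.15 in young arrays. Il1f9, the epidermal cytokine interleukin 36 gamma, read 5.62, 5.47, 5.60 and 6.17 in aged arrays, against 6.78, 6.79, 7.15 and 7.21 in young arrays (difference -1.27 ± 0.17, adjusted p = 0.00873). It moved opposite to Tnf and Il23a. Ascl2, a transcription factor known in mouse intestinal stem cells as a Wnt target, fell by 1.24 (adjusted p = 0.0132), and Btbd3, a BTB-domain protein, by 0.91 (adjusted p = 0.0327). A dimmer probe set of Btbd3 gave 0.05. In Cldn7, Il1f9, Ascl2 and Btbd3, as in Rasl11b, aged replicate 4 was the aged array nearest to the young ones.

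Of the 65 calls, 22 also passed with each of the 8 arrays left out in turn. Among them were Zmynd15, Cadps2, Rgs4, Avpr1a, Krt6a, Far2, Zc3h12c, Casp4, Casp1, Ddx58 and Tm4sf1 on the higher side and Ltbp1, Itih5 and Wipf3 on the lower side. Rasl11b, Cldn7, Npr3, Btbd3 and Akr1c19 were not among them.

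The age differences at ZT0 were then set against those at ZT4, ZT8, ZT12, ZT16 and ZT20, measured in 40 other arrays. Most called differences were also seen there. In the test of the mean age difference over the 5 other times, 52 of the 65 genes passed in the same direction (15.7% of all tested genes did) and 0 in the opposite one. That test called 2510 genes in either direction (19.6%). The sign was the same at all 5 other times for 44 of the 65 (16% of all genes). Zmynd15 differed by 2.75, 2.50, 2.11, 2.31 and 2.18 from ZT4 to ZT20, and Cadps2 by 3.24, 2.60, 2.91, 2.91 and 2.82. Casp1 stayed between 1.54 and 2.03 at these times and Ltbp1 between -2.15 and -1.34. Others had uneven differences across the times: Krt6a differed by 2.52 at ZT4 and by -0.14 at ZT12, and Zc3h12c by 2.29 at ZT4 and -0.06 at ZT8. Only ZT0 against the mean of the other times was tested. Neither gene passed that contrast (limma on all 48 arrays, adjusted p = 0.787 and 0.614).

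**Figure D2:**
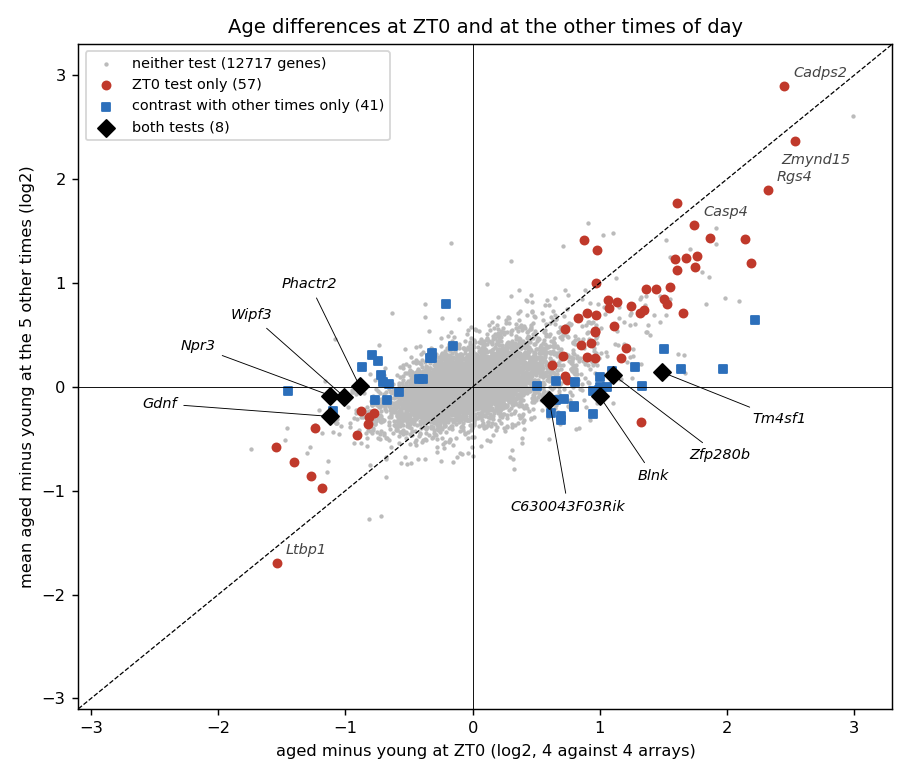
Each point is a gene: aged minus young at ZT0 (horizontal, log2) against the mean of aged minus young at the 5 other times (vertical, log2), with the dashed line where both are equal. Of the 57 genes past the ZT0 test but not the contrast with the other times (red), 56 lie in the same direction on both axes, while the 8 past both tests (black) lie between -0.29 and 0.14 on the vertical axis.

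Each other time, tested on its own 8 arrays, gave 995 calls at ZT4 (7.76%), 370 at ZT8 (2.89%), 45 at ZT12 (0.351%), 648 at ZT16 (5.05%) and 117 at ZT20 (0.912%). Of the 65 genes called at ZT0, 43 were called in the same direction at ZT4, 32 at ZT8, 11 at ZT12, 27 at ZT16 and 13 at ZT20. As a share of the other lists these are 4.32%, 8.65%, 24.4%, 4.17% and 11.1%. No other time called 13 of the genes in either direction, and 1 further gene, Phactr2, was called at ZT8 in the opposite one. The numbers of calls depend on the spread within each set of arrays as well as on the size of the differences. At ZT0 that spread was wide: the median residual SD of a gene was 0.212 there and 0.191 over all 48 arrays. With the spread taken from all 48 arrays, 665 genes passed at ZT0 (5.19%), 350 higher (2.73%) and 315 lower (2.46%), and 64 of the 65 were among them. For 64.4% of genes the spread at ZT0 was wider than that over all 48 arrays. For those genes the shared spread can understate the uncertainty at ZT0, so calls made with it can be too lenient. The contrast with the other times uses the same shared spread.

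Whether a difference was particular to ZT0 was tested directly, as the age difference at ZT0 minus the mean age difference at the other 5 times. By this test 49 of 12823 genes passed (0.382%; limma on all 48 arrays, adjusted p under 0.05). The ZT0 difference lay above the others in 27 (0.211%) and below them in 22 (0.172%). An unadjusted p under 0.05 was reached by 1522 genes. Only 8 genes passed both this test and the ZT0 test (0.0624%): Tm4sf1, Blnk, Zfp280b and the clone-named C630043F03Rik on the higher side, and Gdnf, Phactr2, Wipf3 and Npr3 on the lower side. Their calls were not equally stable under the alternatives listed at the end. Tm4sf1 kept both calls throughout, and Wipf3 lost only the contrast, in 1 of 59. At ZT0, C630043F03Rik and Phactr2 lost the call in 12 of 19, and Npr3 and Zfp280b in 10 of 18. Gdnf lost it in 6 of 19 and Blnk in 3 of 18. The contrast was lost most often by Gdnf, in 23 of 59, and Phactr2, in 22 of 59. In 28 of the 49 the difference at ZT0 and the mean of the others had opposite signs. Without young replicates 2 and 3, 1 gene lay above (Tm4sf1) and 2 below (Wipf3 and Hpca). Single arrays moved these counts as well. Above and below there were 125 and 127 genes without aged replicate 4, 6 and 7 without aged replicate 1, 7 and 5 without aged replicate 3, and 12 and 12 without young replicate 3. The count below was 58 without young replicate 2, 11 without young replicate 1 and 12 without young replicate 4. Of the arrays of other times, aged ZT12 replicate 1 gave 78 and 64 when left out, and 5 others gave 13 below.

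Tm4sf1, a membrane protein with 4 passes known for cell spreading and migration, had the smallest p of this test. At ZT0 it read 9.92, 9.97, 10.21 and 9.80 in aged arrays, against 8.53, 8.63, 8.40 and 8.38 in young arrays. The aged arrays were all more than 1 log2 unit above the young ones, 2.81 times in the mean (difference 1.49 ± 0.12, adjusted p = 0.00032). At the other times the difference was 0.42, 0.05, 0.39, -0.11 and -0.05 from ZT4 to ZT20. The difference at ZT0 exceeded their mean by 1.35 (95% interval 0.95 to 1.76, adjusted p = 0.000442). Both ages took part: aged cells were 0.65 above their own mean of the other times at ZT0, and young cells were 0.70 below theirs (-0.70). It is the gene whose 250 bases are shown next, from the minus strand of GRCm38.p6, 5′ to 3′, and they hold no E-box.
Tm4sf1, chr3:57301989-57302238: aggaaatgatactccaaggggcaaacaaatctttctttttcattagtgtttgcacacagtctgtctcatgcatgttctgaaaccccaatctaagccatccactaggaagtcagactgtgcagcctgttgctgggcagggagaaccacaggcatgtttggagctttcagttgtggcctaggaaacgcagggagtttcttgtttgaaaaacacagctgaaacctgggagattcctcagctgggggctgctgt

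In the other higher genes the aged cells moved most. Blnk, an adaptor of B cell receptor signalling, read 6.15, 6.05, 6.23 and 5.93 in aged arrays at ZT0, against 5.13, 5.20, 4.75 and 5.29 in young arrays (difference 1.00 ± 0.14, adjusted p = 0.0101). Aged cells were 0.89 above their own mean of the other times, and young cells were 0.20 below theirs (-0.20). The difference exceeded that of the other times by 1.09 (0.62 to 1.55, adjusted p = 0.0175). Zfp280b, a zinc finger protein, and C630043F03Rik exceeded it by 0.99 and 0.73 (adjusted p = 0.0378 and 0.0194).

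In the 4 lower genes young cells stood higher at ZT0 than at the other times. Wipf3, which binds actin and its regulator WASP, read 7.08, 7.02, 6.62 and 6.99 in aged arrays at ZT0, against 8.08, 7.85, 7.91 and 7.93 in young arrays (difference -1.01 ± 0.13, adjusted p = 0.0074). At other times the differences lay between -0.38 and 0.20. Young cells were 0.79 above their own mean of the other times, while aged cells differed from theirs by -0.13, and the ZT0 difference lay below the others by -0.92 (-1.24 to -0.60, adjusted p = 0.00387). Npr3, the clearance receptor for natriuretic peptides, read 5.56, 5.56, 4.92 and 4.89 in aged arrays, against 6.54, 6.23, 6.61 and 6.01 in young arrays. Its young cells were 1.16 above their own mean of the other times and its aged cells 0.12 above theirs. Gdnf, the ligand that signals through RET, read 5.61, 6.08, 5.12 and 5.57 in aged arrays, against 6.85, 6.71, 6.80 and 6.52 in young arrays. Npr3 and Gdnf were not confined to ZT0: both were also called at ZT4 on its own 8 arrays (adjusted p = 0.0211 and 0.0231), with differences of -0.93 and -0.77. Phactr2, a regulator of protein phosphatase 1 and actin, differed by -0.89 at ZT0, with shifts of -0.40 in aged and 0.49 in young cells, and it was called with the opposite sign at ZT8 (0.43, adjusted p = 0.0475).

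**Figure D3:**
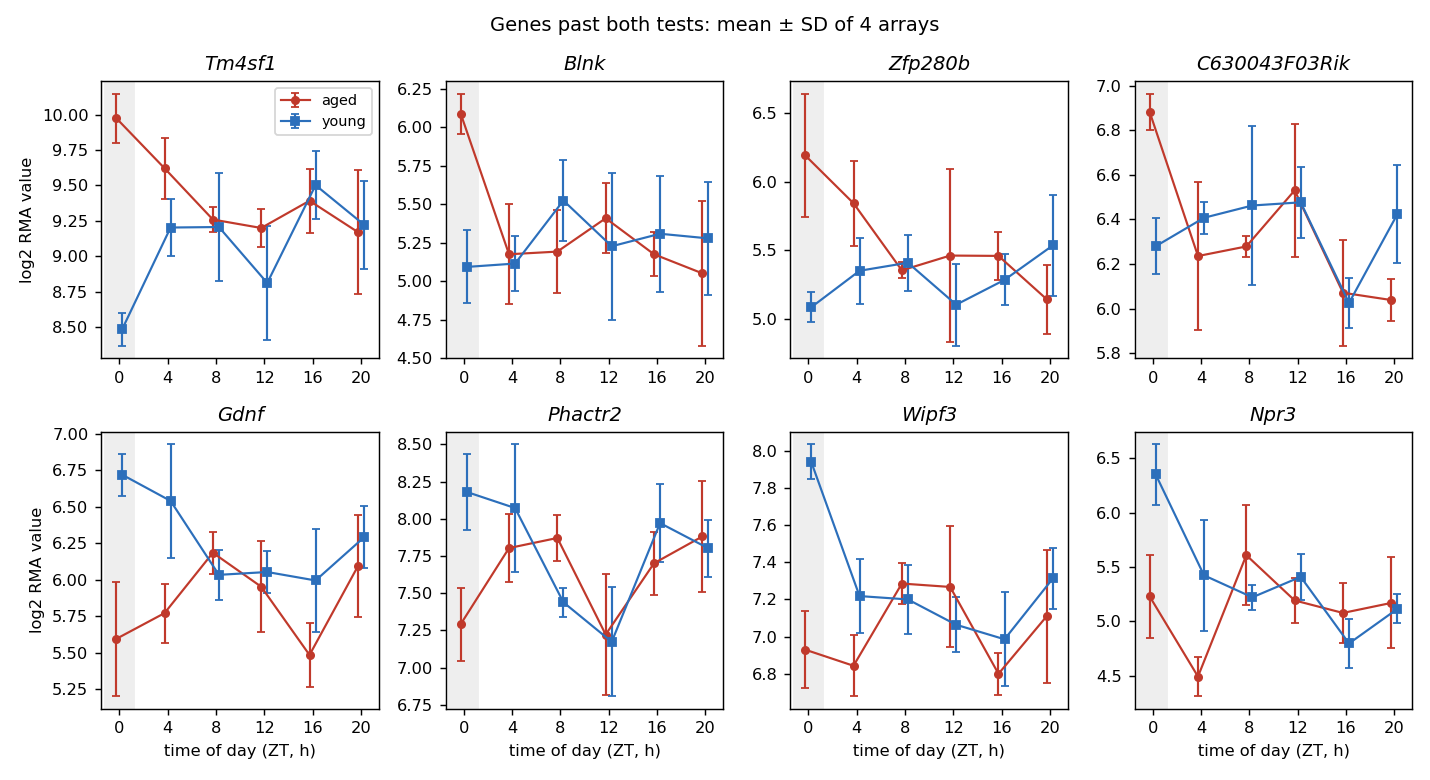
Mean log2 RMA value by time of day in aged (red circles) and young (blue squares) cells for the 8 genes past both tests, with bars of 1 SD over 4 arrays and ZT0 shaded. The ages stand apart at ZT0, by 1.49 in Tm4sf1 and -1.01 in Wipf3, and lie closer at most other times.

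Neighbouring times gave a stricter comparison. With only ZT20 and ZT4 set against ZT0, 4 genes passed, all above: Tm4sf1 (1.31), Srp54b (1.03), C630043F03Rik (0.88) and Mul1 (0.83). Srp54b, a copy of a signal recognition particle subunit, has near-identical copies in the mouse genome whose signal its probes may share. Mul1 encodes a mitochondrial ubiquitin ligase.

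Among genes that passed the comparison with other times without being called at ZT0, several had another sign at this hour. Fst, the activin-binding protein follistatin, read 10.33, 10.32, 10.41 and 10.31 in aged arrays, against 9.77, 10.00, 9.41 and 9.43 in young arrays. The groups did not overlap and the aged arrays were nearly equal, but the difference of 0.69 missed the ZT0 threshold (adjusted p = 0.0731). From ZT4 to ZT20 the differences were 0.03, -0.28, -0.59, -0.55 and -0.20, so the contrast with the other times was 1.01 (adjusted p = 0.00821). Gata6, a transcription factor of the upper hair follicle, was 0.80 higher at ZT0 (adjusted p = 0.0915), and the contrast was 0.99 (adjusted p = 0.0151). Itga5, the fibronectin receptor subunit, gave a contrast of 1.09 (adjusted p = 0.0127) with aged values as wide as 4.05 to 5.85. Its sign did not turn, with a mean difference of 0.19 over the other times. Its young values at ZT0, 3.61 to 3.88, lay under the dim limit of 3.96.

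In Cc2d2a, a protein of the ciliary transition zone, the rise with age of the other times was not seen at ZT0. It read 7.13, 6.99, 6.73 and 7.08 in aged arrays at ZT0, against 7.02, 7.19, 7.42 and 7.14 in young arrays, and the groups overlapped (difference -0.21, 95% interval -0.50 to 0.08). At the other times aged cells were higher by 0.30, 1.31, 0.78, 0.70 and 0.89, and the contrast was -1.004 (adjusted p = 0.00182). Fgd6, an exchange factor for CDC42, had the same form with a contrast of -0.55 (adjusted p = 0.0259). The other named genes above the other times were Rnf25, Upb1 and Cfl2, and those below were Ppp1r10, Hpca, Frmd4a, Tdrd3, Zfp12 and Mcm3ap. Their contrasts ran from 0.84 to 1.00 above and from -1.10 to -0.49 below. Other probe sets did not always give the same ZT0 difference. Tdrd3 gave -0.66 in the probe set used but 0.48 and 0.49 in its other sets. Rnf25 gave 1.00 in the set used and 0.31 in its other set. Hpca gave -0.87 and, in a set under the dim limit, -0.07. Both sets of Ppp1r10 gave -0.79.

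The core clock held 18 tested genes, and 0 of them were called at ZT0 by limma on 8 arrays, where 0.507% of all tested genes were. An unadjusted p under 0.05 was reached by 3 of them, beside 1582 of all 12823 tested genes. Per2, a repressor of the clock, read 6.39, 6.32, 6.29 and 5.35 in aged arrays, against 5.66, 5.33, 5.44 and 5.62 in young arrays. It was higher in 3 of the 4 aged arrays, while replicate 4 lay within the young range (difference 0.57, 95% interval 0.10 to 1.05, adjusted p = 0.299). Arntl, the activator whose RNA is high around this hour, read 8.81, 8.83, 9.89 and 8.68 in aged arrays, against 8.84, 8.90, 7.34 and 8.52 in young arrays. The number 3 arrays were the extremes in both ages, the aged one high and the young one low, and the other arrays overlapped (difference 0.65, -0.13 to 1.43, adjusted p = 0.512). A second probe set of Arntl, with a mean of 7.42, gave a difference of -0.07. Bhlhe40, a repressor of the same promoters, had a difference of 0.58 (adjusted p = 0.351). It passed when the spread of all 48 arrays was used (adjusted p = 0.0152), the only clock gene to do so.

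The repressors Per3, Cry1 and Ciart had differences of -0.40, -0.35 and -0.31, and the output factor Dbp of 0.26, with adjusted p between 0.388 and 0.633. The median over the 18 genes was 0.0035 at ZT0, beside -0.019 over all tested genes. None of the clock genes had groups that did not overlap, and none passed the comparison with other times. A missed threshold does not show equal levels, and the intervals are those plotted beside the other times.

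**Figure D4:**
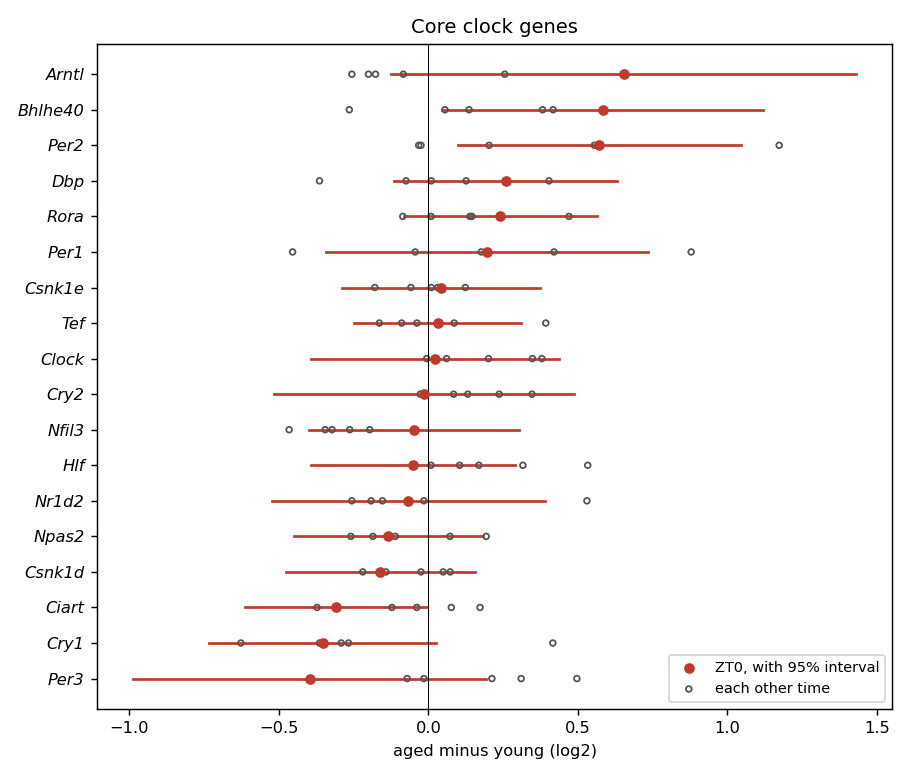
Aged minus young (log2) of the 18 core clock genes at ZT0 (red, with 95% interval) and at each of the 5 other times (open circles). Every interval at ZT0 reaches to within 0.10 of 0 or crosses it, and the widest is that of Arntl, from -0.13 to 1.43.

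Of 38 gene lists for pathways and cell types, 32 had no called member at ZT0 in the limma fit of 8 arrays, and 15 of these 32 had at least 1 with the spread of all 48 arrays. The called members were 8 of 447 tested genes (1.79%), beside 0.507% of all tested genes. An unadjusted p under 0.05 was reached by 83 members, beside 1582 of all 12823 tested genes. With the spread of all 48 arrays 40 members were called (8.95%), beside 5.19% of all. The lists were chosen with earlier results of these data known, so nothing is read from these shares. The stressed keratinocyte and inflammation list had the most, with 3 of 15 higher (Casp4, Krt6a and Casp1) and 0 lower. Its median difference was 0.48, and 13 of 15 members were positive. Over the other times the median was 0.51, with 1.03 at ZT4 and 0.07 at ZT20, and without young replicates 2 and 3 it was 0.57 with 3 called.

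The upper follicle and sebaceous gland list had the highest median, 0.51, with 1 of 9 called, beside 0.507% of all tested genes. The called gene was Cst6, a cystatin that inhibits the proteases of cornification. It read 10.11, 9.56, 10.16 and 10.36 in aged arrays, against 8.20, 7.84, 8.67 and 8.86 in young arrays (difference 1.65 ± 0.24, adjusted p = 0.0108). Mgst1, a membrane glutathione transferase rich in sebaceous cells, read 8.58, 7.27, 7.96 and 8.93 in aged arrays, against 6.35, 6.51, 7.12 and 6.56 in young arrays, and it missed the threshold (difference 1.55, adjusted p = 0.062). Mgst1, Gata6, Scd1 and Krt79 had groups that did not overlap, as did Cst6, where 2.93% of all tested genes had every aged array above every young one. With the spread of all 48 arrays 4 of the 9 were called higher, beside 2.73% of all. The median of this list was 0.40 at ZT4 and between 0.09 and 0.16 at the other 4 times. The summed level of the list, as the mean of its members, ran from 8.95 to 9.59 in aged arrays and from 8.56 to 8.61 in young arrays, so the part that the mix of sorted cells has in Far2, Cst6 and the related rises was not tested. In bulk RNA, more cells of a type and more RNA per cell cannot be told apart.

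The suprabasal list had a median of 0.38 and 0 of 10 called at ZT0 (limma), beside 0.507% of all tested genes. At an unadjusted p under 0.05 there were 7, beside 1582 of all 12823 tested genes. With the spread of all 48 arrays 2 were called higher and 1 lower, beside 2.73% and 2.46% of all. Of the 10 members 9 were positive, and 3 had every aged array above every young one (2.93% of all tested genes did). Calml3, a calmodulin-like protein of differentiating keratinocytes, was 0.90 higher (adjusted p = 0.103). Lor, the cornified envelope protein loricrin, was the only negative member, at -1.30 (adjusted p = 0.185), and its groups overlapped. From ZT4 to ZT20 the list median was -0.14, 0.03, -0.01, 0.20 and -0.16. The basal list, which marks the stem cell layer, had a median of -0.02, with all 10 members between -0.12 and 0.21 and 0 called. In the list of T cell genes the median was 0.30 with 0 of 7 called. Neither of these lists had a member at an unadjusted p under 0.05 (limma) or called with the spread of all 48 arrays. Its level ran from 5.22 to 5.45 in aged arrays and from 5.05 to 5.19 in young arrays.

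Single members were called in 4 further lists. Cdkn2b, the cell cycle inhibitor p15, rose by 1.11 ± 0.15, with aged values of 6.74, 7.02, 6.81 and 6.69, against 5.70, 5.46, 6.10 and 5.55 in young arrays (adjusted p = 0.00926). The other 8 tested members of its list, cell cycle inhibitors and senescence, were not called by limma on 8 arrays. With the spread of all 48 arrays Cdkn1c, the inhibitor p57, was called lower (-0.62, adjusted p = 0.0352). Egr3, an immediate early transcription factor, read 8.46, 8.05, 8.17 and 7.18 in aged arrays, against 6.77, 6.72, 6.41 and 6.58 in young arrays (difference 1.35 ± 0.23, adjusted p = 0.0327). Ddx58, the RNA sensor RIG-I, read 6.92, 6.94, 6.91 and 7.07 in aged arrays, against 6.01, 6.08, 5.97 and 6.35 in young arrays (difference 0.85 ± 0.12, adjusted p = 0.00997). Ltbp1 was the called member of the TGF-beta and BMP list. In each of these lists the median lay between -0.04 and 0.12.

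Division genes held no call at this hour: 0 of 29 in S phase and replication and 0 of 28 in G2 and mitosis (limma), with medians of -0.02 and -0.05. An unadjusted p under 0.05 was reached by 2 and 1 of them, beside 1582 of all 12823 tested genes. Only 0.507% of all tested genes were called, so 0 calls in lists of this size do not set their members apart. The 24 members of oxidative phosphorylation lay between -0.15 and 0.17, with 0 called and 0 at an unadjusted p under 0.05 (limma). DNA repair, glycolysis and ribosome biogenesis also had 0 called, of 21, 14 and 16, with 0, 0 and 2 at an unadjusted p under 0.05. With the spread of all 48 arrays these 6 lists likewise had 0 called. The lowest list median, -0.20, was that of the Wnt pathway, where 0 of 17 were called in either fit and 5 had an unadjusted p under 0.05. Its antagonists Dkk3 and Sfrp1 and the receptor Fzd10 had differences of -0.50, -0.37 and -0.47 that did not pass (adjusted p = 0.107 to 0.293).

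**Figure D5:**
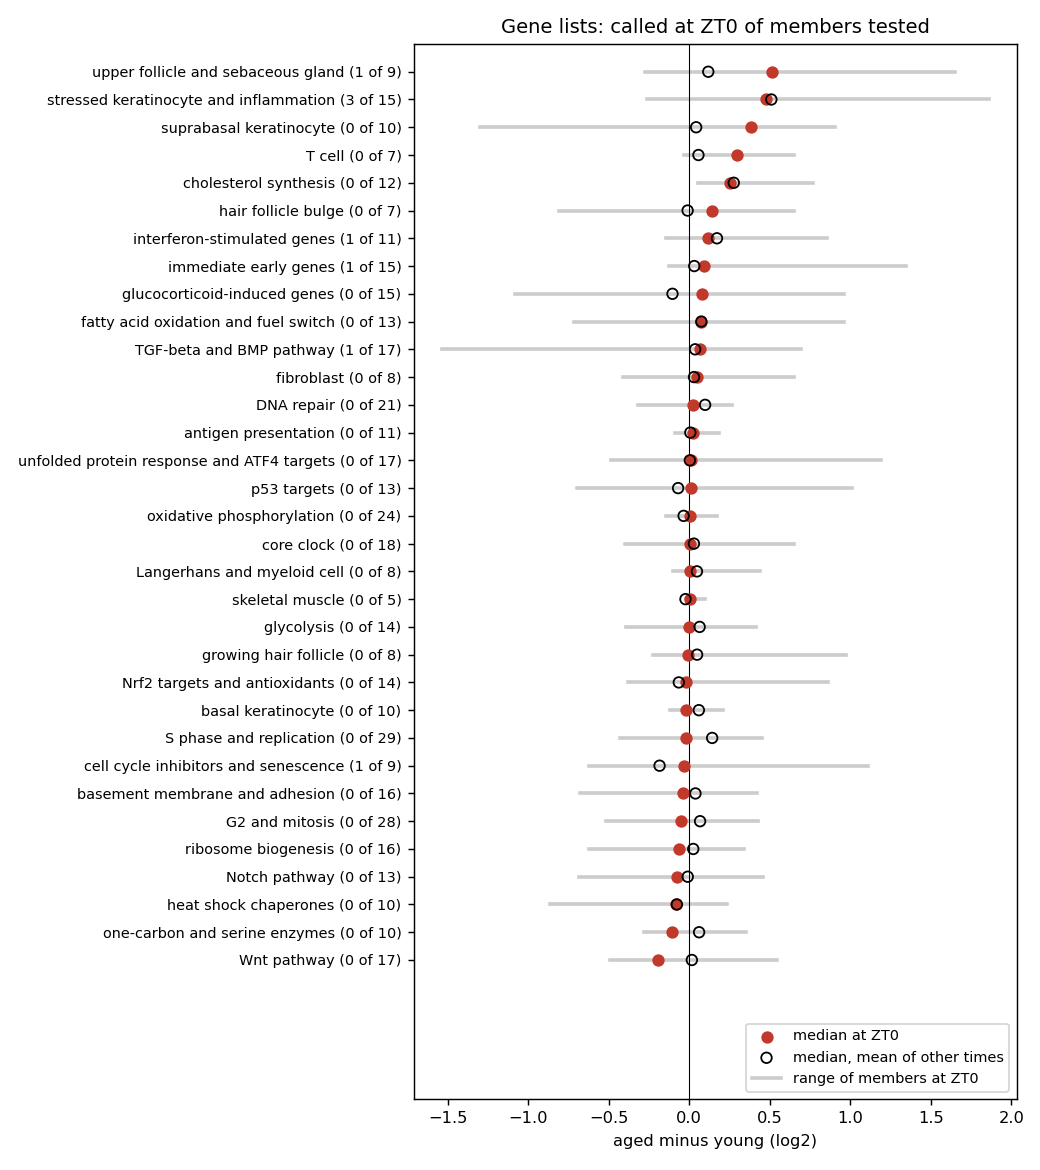
Median aged minus young (log2) of each list with at least 5 tested members at ZT0 (red) and as the mean of the other times (open circles), over the range of members at ZT0 (grey bars), with called and tested members in brackets. The upper follicle and sebaceous gland list has the highest median at ZT0 (0.51). With the other times averaged it lies at 0.12, and at ZT4 alone it lies at 0.40.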

How the data were processed

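RNA of 48 samples was measured, 1 array per sample, and the deposited log2 values are probe set signals that the authors made with RMA, per the submitters' processing notes. RMA corrects the background, aligns the arrays' distributions and summarises probes, so a shift of all genes would be lost. The sources used here do not give its version, any dates, or whether all arrays were normalised together. Of 45141 probe sets, 28898 carry 1 gene symbol, 551 several and 15692 are not in the probe table. For each of 17097 genes the brightest probe set was used, and the lowest 25% of genes (mean under 3.96) were left out.

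limma 3.58.1 in R 4.3.3 fitted aged minus young on the 8 ZT0 arrays. A second fit of 12 group means on 48 arrays tested the ZT0 difference minus the mean of the other 5 times. The 2-sided p-values were corrected over the 12823 tested genes (Benjamini-Hochberg), and those under 0.05 were called. The tests were checked on simulated data. The members, gene lists and tests were chosen with earlier results of these data known. Named genes were the 10 largest called rises and falls, up to 10 of each sign with the smallest p of the second fit, up to 3 per list with the smallest p, and every core clock gene. Predicted and clone names were passed over, except C630043F03Rik, which was named after its values were seen because it is 1 of the 8 genes past both tests. Alternatives were other dim-gene limits, the mean of all probe sets, median centring, weights per array, cyclic loess, a robust eBayes with trend, a replicate block, a change of 1.5 times, other spreads and times, and each array left out. Promoter letters are RefSeq's on GRCm38.p6. The number of arrays limits the precision, and p-values measure the spread between these mice.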

Additional observations from a re-analysis of the deposited data

Results flagged for a closer look

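In 24 named genes the age difference at ZT0 departed from the mean of the other 5 times, by the contrast of the 12-group limma fit (adjusted p under 0.05). It lay above the others by 1.35 in Tm4sf1, 1.09 in Blnk, 1.09 in Itga5, 1.01 in Fst, 1.00 in Rnf25, 0.99 in Gata6, 0.99 in Zfp280b, 0.98 in Srp54b, 0.87 in Upb1, 0.84 in Cfl2, 0.79 in Mul1 and 0.73 in C630043F03Rik. It lay below by -1.10 in Ppp1r10, -1.06 in Hpca, -1.03 in Npr3, -1.004 in Cc2d2a, -0.92 in Wipf3, -0.89 in Phactr2, -0.84 in Gdnf, -0.83 in Frmd4a, -0.68 in Tdrd3, -0.55 in Zfp12, -0.55 in Fgd6 and -0.49 in Mcm3ap.

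Among 144 groups of 4 values (the named genes in aged and in young arrays at ZT0), 8 had 1 array far from the other 3, by the 95% limit of Dixon's ratio of the gap to the range. Chance alone gives about 1 in 20 such groups. In aged arrays, replicate 4 was high for Scd1 (ratio 0.886) and Phactr2 (0.941) and low for Per2 (0.899), replicate 3 was high for Arntl (0.875), and replicate 1 was high for Grhl1 (0.969). In young arrays, replicate 3 was low for Akr1c13 (0.865), and replicate 2 was high for Npas2 (0.896) and low for Mul1 (0.836). For Per2 the aged replicate 4 read 5.35, where the other aged arrays read 6.29 to 6.39. For Arntl the aged replicate 3 read 9.89, where the others read 8.68 to 8.83.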

How the results depend on the processing

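The numbers of calls moved with most choices. At ZT0, 50 genes were higher and 15 lower. There were 24 and 9 with the lower 50% of genes left out, 162 and 92 with array weights, 85 and 25 with a robust eBayes with trend, and 350 and 315 with the spread of all 48 arrays. Centring arrays on their median gave 30 higher genes, and the mean of all probe sets gave 9 lower ones. In the comparison with the other times, 27 genes lay above and 22 below. Array weights gave 56 and 62, only ZT20 and ZT4 gave 4 and 0 (limma), no dim-gene filter gave 14 below, the mean of all probe sets gave 36 below, and median centring gave 39 below. Without young replicates 2 and 3, chosen after seeing the data, there were 23 higher and 7 lower genes at ZT0, and 1 above and 2 below. With 1 array left out at a time, the counts ran from 21 to 225 (higher), 3 to 131 (lower), 6 to 125 (above) and 5 to 127 (below). All 4 highest counts came without aged replicate 4. The lowest came without aged replicate 1 for the higher and above counts and without aged replicate 3 for the lower and below counts. The replicate block gave 24 higher and 5 lower at ZT0, and 14 below. No other alternative moved a count by more than 1.5 times, apart from single arrays left out, and the cause of these shifts was not tested.

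The named genes kept their direction in every alternative, except that Tdrd3 gave 0.0051 for the comparison with other times when all its probe sets were averaged. Zmynd15, Cadps2, Avpr1a, Krt6a, Far2, Casp4, Casp1, Itih5, Wipf3 and Tm4sf1 passed at ZT0 in all alternatives that tested them. Residuals of aged and young arrays with the same replicate number correlated at -0.36, -0.29, -0.25 and -0.03, so the numbers were not taken to pair the mice.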

Other observations

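Cholesterol synthesis genes pointed one way at ZT0. All 12 tested members had a positive difference, with a median of 0.25, and 0 were called (limma, 8 arrays), beside 0.507% of all tested genes. An unadjusted p under 0.05 was reached by 3 of the 12, beside 1582 of all 12823 tested genes. Mvd, which makes isopentenyl diphosphate, had the largest, at 0.77 (adjusted p = 0.121), and it passed with the spread of all 48 arrays (adjusted p = 0.00188). Sqle, squalene epoxidase, differed by 0.72 (adjusted p = 0.211). The median was 0.28 over the other times.

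Genes that hormones and fasting control were uneven. Ddit4, an inhibitor of mTORC1, read 6.79, 6.81, 7.78 and 7.82 in aged arrays, against 8.28, 8.36, 8.64 and 8.27 in young arrays. The groups did not overlap, and the difference of -1.09 missed the threshold (adjusted p = 0.0925). Pdk4, which blocks the entry of pyruvate into the mitochondrial cycle, differed by 0.96 at ZT0 and was not called (limma, adjusted p = 0.131). From ZT4 to ZT20 it differed by 1.36, -0.68, -0.39, -1.31 and 1.68. Fkbp5, a target of the glucocorticoid receptor, differed by 0.92 at ZT0 and by -1.85 at ZT8. Of the 15 glucocorticoid-induced genes 0 were called at ZT0 by limma on 8 arrays, beside 0.507% of all tested genes. An unadjusted p under 0.05 was reached by 4 of the 15, beside 1582 of all 12823 tested genes. With the spread of all 48 arrays Ddit4 was called lower (adjusted p = 0.00651).

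Bex1 had the largest difference of any tested gene at ZT0 and a wide aged spread. It read 7.51, 3.08, 5.90 and 8.95 in aged arrays, against 3.12, 3.16, 3.81 and 3.37 in young arrays. Aged replicate 2 lay at the young level, so the groups overlapped. Slc39a2, a zinc transporter, read 6.94, 6.89, 7.24 and 7.03 in aged arrays at ZT0, against 6.32, 5.99, 5.37 and 5.13 in young arrays (difference 1.32, adjusted p = 0.0337). Its differences were -0.72 at ZT8 and -1.24 at ZT20, and the contrast with the other times, 1.66, fell just short (adjusted p = 0.0504).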
